A study of Glycine max with 16 samples.

Results

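Transcripts of field-grown soybean (Glycine max) leaflets in the early afternoon, at 14:00, were compared with those in the morning, at 8:00. The rule took the libraries of these hours from the read-count table, which made 8 of the 16 libraries of the series, with 4 at 14:00 (zeitgeber time 8 h 20 min) and 4 at 8:00 (zeitgeber time 2 h 20 min). All plants were cultivar 93B15, untreated, in reproductive development, in field plots of a research farm. Each of the 4 plots is 1 biological replicate and gave a library at both hours, made from the 3 leaflets of 1 uppermost, fully expanded leaf. Every plot was visited on a day of its own, so plot and sampling day cannot be told apart, and the leaf cut at 14:00 was not the leaf cut at 8:00.

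Leaves anticipate the day with a circadian clock, a loop of transcription factors in which morning repressors of the LHY and CCA1 family and later-acting pseudo-response regulators switch each other off in turn. Clock and light signals together time the transcripts for the antenna proteins that gather light, for the enzymes that make chlorophyll, and for Rubisco activase, the chaperone that removes inhibitory sugar phosphates from the carbon-fixing enzyme Rubisco. Nutrient uptake and hormone response transcripts are also known to follow the time of day in many plants.

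The 14:00 libraries held 19760594 to 22317152 counts assigned to genes, and the 8:00 libraries held 21216995 to 23698854. Levels are given as CPM, counts relative to a library's effective size after trimmed mean of M-values (TMM) scaling, in the order of plots 1 to 4. CPM is not corrected for transcript length, so levels are compared between hours and not between genes. A gene is called higher or lower where edgeR's quasi-likelihood test gave an adjusted p under 0.05 and the log2 fold change of 14:00 over 8:00 was at least 1 in size. The leaflets are whole organs, and fewer cells of a type cannot be told apart from less RNA per cell. As a check of tissue, the Rubisco small chain Glyma.13G046200, which marks green leaf cells, had 4488 to 9835 CPM at 14:00 and 7724 to 11431 CPM at 8:00. The 4 sieve element markers of the phloem summed to 0.154 to 1.82 CPM at 14:00, and to 0.157 to 4.06 CPM in plots 2 to 4 at 8:00. The 8:00 library of plot 1 had 408 CPM, of which 407 CPM was Glyma.20G204500 alone. The other markers did not share that level.

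Between morning and early afternoon the leaf transcriptome changed in both directions. Of 36059 genes tested, 4387 (12.2%) were higher at 14:00 than at 8:00 and 3753 (10.4%) were lower. The median log2 fold change was 1.59 among the genes higher at 14:00 and -1.56 among those lower, against 0.01 over all genes. Of the 4387 higher genes 4240 were higher in all 4 plots, and of the 3753 lower genes 3512 were lower in all 4 plots, counts that a test with plot as a term favours by its selection. For 3822 of the higher genes and 2891 of the lower genes the 4 values at 14:00 lay wholly outside the 4 values at 8:00, which held for 18.9% and 15.8% of all genes in the same directions. Changes of at least 3 on the log2 scale were seen in 419 higher and 316 lower genes. With libraries scaled by their totals alone, the median of all genes moved to 0.20 and the calls became 5581 higher and 2745 lower, so 67.0% of calls were higher in place of 53.9%.

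The morning clock repressors were lower at 14:00 and most later-acting clock genes were higher. LCL2 (Glyma.03G261800), a MYB repressor of the LHY and CCA1 family, had 43.0, 25.04, 33.3 and 19.7 CPM at 14:00, against 898, 1130.2, 1267 and 904 CPM at 8:00. Its lowest morning plot stood far above its highest afternoon plot, and the log2 fold change was -5.17 (SE 0.26, edgeR adjusted p = 1.4e-08). LCL1 (Glyma.07G048500), its close relative, had 106, 108, 107 and 81.3 CPM at 14:00 and 269.6, 595, 621 and 296 CPM at 8:00, a smaller fall of 2.09 on the log2 scale (SE 0.25, edgeR adjusted p = 1.6e-05). The hours did not overlap for either gene.

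Among the pseudo-response regulators, which repress the morning genes in sequence, PRR3 (Glyma.U034500) had 63.0, 93.1, 67.0 and 86.3 CPM at 14:00 and 3.25, 2.86, 9.39 and 5.65 CPM at 8:00. PRR7 (Glyma.10G048100) had 121, 112, 129 and 134 CPM at 14:00 and 18.01, 11.1, 41.6 and 31.3 CPM at 8:00. PRR9 (Glyma.06G136600) had 66.9, 53.6, 87.7 and 68.4 CPM at 14:00 and 20.0, 2.03, 17.1 and 34.99 CPM at 8:00. All of these rose without overlap between the hours, with log2 fold changes of 3.90, 2.38 and 2.09 (edgeR adjusted p = 7.1e-06, 7.6e-06 and 0.0023). PRR73 (Glyma.04G228300), named from its best database match, behaved alike, with 91.0, 45.4, 89.9 and 83.5 CPM at 14:00 and 26.0, 1.93, 26.4 and 43.5 CPM at 8:00 (log2 fold change 1.85, SE 0.50, edgeR adjusted p = 0.0085).

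PRR5 (Glyma.03G261300) differed from this group in its values. It had 42.5, 34.7, 34.0 and 33.8 CPM at 14:00 and 38.3, 2.71, 49.2 and 56.7 CPM at 8:00, so that the hours overlapped and only plot 2 had a much lower morning value. Its log2 fold change was 0.13 (SE 0.50, edgeR adjusted p = 0.86), and -0.42 without plot 2. In plot 2 the 8:00 library was also the lowest of the morning libraries for PRR9, PRR7, PRR3, PRR73, GIGANTEA, TOC1 and LUX. At 14:00, plot 2 was lowest for PRR7, PRR9, PRR73, GIGANTEA, TOC1 and LUX, but not for PRR3 or PRR5.

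GIGANTEA (Glyma.20G170000), a scaffold protein of the clock and the photoperiod pathway, had 137, 106, 123 and 131 CPM at 14:00 and 20.5, 3.49, 38.3 and 31.4 CPM at 8:00 (log2 fold change 2.62, SE 0.42, edgeR adjusted p = 0.00017). The hours were widely apart, and the morning values varied by more than the afternoon values. TOC1 (Glyma.04G166300), an evening repressor of the morning genes, had 26.6, 11.0, 19.3 and 25.9 CPM at 14:00 and 12.2, 5.57, 7.99 and 12.9 CPM at 8:00. TOC1 was higher in every plot, although plot 2 at 14:00 lay within the morning range (log2 fold change 1.09, SE 0.22, edgeR adjusted p = 0.0011).

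Evening genes were low in the morning and differed in when they rose. LUX (Glyma.12G060200), a DNA-binding member of the evening complex in Arabidopsis, had 3.78, 1.61, 2.26 and 6.02 CPM at 14:00 and 0.929, 0, 0.209 and 0.337 CPM at 8:00 (log2 fold change 3.20, SE 0.46, edgeR adjusted p = 7.0e-05). Jumonji (Glyma.11G130600), a histone demethylase family member, had 12.5, 1.07, 6.38 and 8.18 CPM at 14:00 and 0.413, 0.416, 0.157 and 0.590 CPM at 8:00 (log2 fold change 4.00, SE 0.58, edgeR adjusted p = 7.7e-05). Both stood without overlap, and both were higher again at 17:00, with means of 32.9 CPM for LUX and 68.3 CPM for Jumonji.

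ELF4 (Glyma.18G027500), another evening complex member in Arabidopsis, was close to undetected at both hours, although it averaged 10.6 CPM at 17:00. Its levels were 0.0536 to 0.164 CPM at 14:00 and 0.104 to 0.548 CPM at 8:00, and the difference missed the threshold (log2 fold change -1.19, SE 0.62, edgeR adjusted p = 0.14). ZEITLUPE (Glyma.09G056100), a blue-light receptor that targets clock proteins for degradation, had 31.2 to 37.3 CPM at 14:00 and 49.4 to 77.3 CPM at 8:00. The hours did not overlap, and its log2 fold change of -0.96 (SE 0.17, edgeR adjusted p = 0.00045) narrowly missed the fold threshold.

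**Figure D1:**
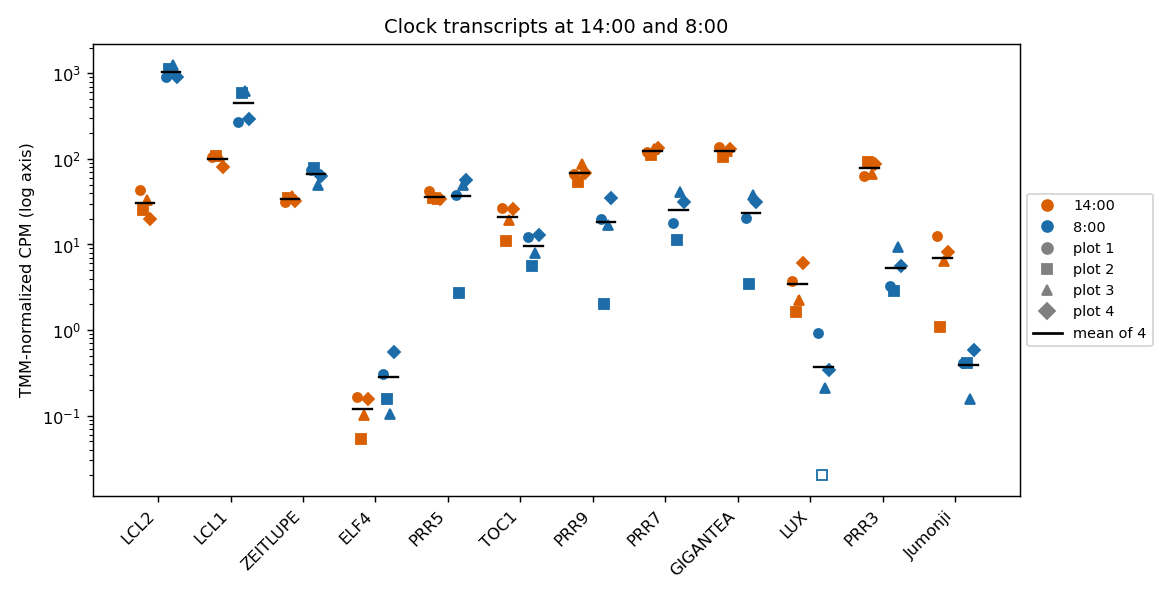
TMM-normalized CPM (log axis) of 12 clock genes at 14:00 (orange, left of each pair) and 8:00 (blue, right), with 1 symbol per plot and a bar at the mean of 4 plots. The open square at the bottom edge is a value of 0 for LUX. LCL2 and LCL1 lie lower at 14:00, GIGANTEA, PRR3, PRR7 and PRR9 lie higher, and the 8:00 library of plot 2 (squares) lies lowest for PRR5, PRR9 and GIGANTEA.

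Antenna transcripts were higher at 14:00. Of 12 genes whose database match was a chlorophyll a/b binding protein, 8 were higher, 0 were lower and 4 were not called, with a median log2 fold change of 1.47, against 12.2% higher and 10.4% lower among all genes. No member had a negative log2 fold change, and at an unadjusted p under 0.05 edgeR placed 10 higher and 0 lower, and both DESeq2 and limma called 8 higher and 0 lower. The count higher was 7 without plot 1, 5 without plot 3 and 8 without plot 2 or plot 4, and it was 4 without the plot term.

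Glyma.08G082900, an antenna gene with many counts, had 5891, 8309, 8591 and 4117 CPM at 14:00 and 2484, 3101, 4214 and 2333 CPM at 8:00. Plots 2 and 3 were higher than plots 1 and 4 at both hours, so the hours overlapped slightly although every plot rose (log2 fold change 1.11, SE 0.18, edgeR adjusted p = 0.00022). Glyma.05G128000 had 4281, 8669, 7543 and 3284 CPM at 14:00 and 1395, 2693, 2380.0 and 1156 CPM at 8:00, with no overlap (log2 fold change 1.62, SE 0.18, edgeR adjusted p = 6.7e-06).

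A still larger change was found for Glyma.01G115900, a further antenna gene outside the list, with 995, 2204, 1701 and 965 CPM at 14:00 and 207, 627, 371 and 165 CPM at 8:00 (log2 fold change 2.18, SE 0.21, edgeR adjusted p = 1.8e-06). Its level at 17:00 averaged 1474 CPM, close to the 1466 CPM at 14:00, whereas Glyma.08G082900 was lower at 17:00 (2746 CPM) than at 14:00 (6727 CPM). Glyma.16G162600, Glyma.16G165500 and Glyma.16G165800, loci of chromosome 16 matched to the same type I antenna protein, were called and were lowest in plot 4 at both hours. Of these, Glyma.16G165500 had 25.8, 35.6, 62.3 and 3.55 CPM at 14:00 and 6.25, 21.5, 5.48 and 2.15 CPM at 8:00 (log2 fold change 1.68, SE 0.47, edgeR adjusted p = 0.0096). Its log2 fold change was 1.00 without plot 3 and no longer passed the test (edgeR adjusted p = 0.11), and without the plot term the adjusted p was 0.11 as well. Glyma.16G165800 (log2 fold change 1.49) was lost without plot 1 or plot 3, with log2 fold changes of 1.31 and 0.84, and without the plot term (edgeR adjusted p = 0.14), and such near-identical copies may share reads.

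Few of the photosystem genes looked at were called, and some missed only the fold threshold. The list held 5 subunit genes, drawn only from described genes that varied most between plots. Of these, edgeR, DESeq2 and limma called 0, and 0 had an unadjusted p under 0.05 in edgeR, with log2 fold changes of -1.02 to 0.93. PsaD (Glyma.10G249000) of photosystem I, picked after its values were seen, averaged 1683 CPM at 14:00 and 1678 CPM at 8:00. PsaK (Glyma.09G087700), another photosystem I subunit, had 107, 198, 168 and 75.7 CPM at 14:00 and 186, 312, 321 and 133 CPM at 8:00, and its log2 fold change of -0.80 (SE 0.14, edgeR adjusted p = 0.00036) was below the fold threshold. The Psb28 genes of photosystem II assembly, Glyma.10G040600 and Glyma.13G127200, had log2 fold changes of -0.60 and -0.69, also below it. Both were lower at 14:00 in every plot (edgeR adjusted p = 0.0019 and 0.0011). The locus that the paper names PsbD (Glyma.01G153500), after a reaction centre protein of photosystem II, had 2.18, 6.76, 4.62 and 2.93 CPM at 14:00 and 1.65, 1.72, 2.40 and 1.73 CPM at 8:00. It passed the test narrowly (log2 fold change 1.05, SE 0.27, edgeR adjusted p = 0.0058), and without plot 2 its log2 fold change was 0.70.

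Transcripts of the Rubisco activase genes looked at, some of them among those with most counts in the morning, were lower at 14:00 in every plot. The whole gene family was not listed. Glyma.11G221000 had 3349, 4654, 4964 and 2455 CPM at 14:00 and 12219, 18994, 21903 and 12252 CPM at 8:00 (log2 fold change -2.09, SE 0.19, edgeR adjusted p = 1.4e-06). Glyma.18G036400 had 4594, 8814, 7622 and 3855 CPM at 14:00 and 12312, 19208, 21843 and 11111 CPM at 8:00 (log2 fold change -1.40, SE 0.19, edgeR adjusted p = 3.5e-05). Together they took 1.04% ± 0.27 of the counts of all tested genes at 14:00 and 2.98% ± 0.825 at 8:00 (SD, n = 4 plots each). Another activase gene, Glyma.14G067000, had 266, 353, 358 and 255 CPM at 14:00 and 818, 1168, 1033 and 698 CPM at 8:00 (log2 fold change -1.59, SE 0.19, edgeR adjusted p = 1.8e-05). None of these genes had overlapping hours, and all were lower at 14:00 than at 11:00 as well.

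The Rubisco subunit and its assembly factors behaved otherwise. The Rubisco small chain gene Glyma.13G046200 had a log2 fold change of -0.51 (SE 0.17, edgeR adjusted p = 0.027), below the fold threshold. Chaperonins that bind the Rubisco large subunit during assembly were higher at 14:00. Glyma.15G250500 had 270.3, 353, 271 and 296 CPM at 14:00 and 89.3, 71.6, 68.5 and 85.1 CPM at 8:00 (log2 fold change 1.91, SE 0.19, edgeR adjusted p = 2.8e-06), and Glyma.11G195900 had 262 to 365 CPM at 14:00 and 113 to 132 CPM at 8:00 (log2 fold change 1.36, SE 0.20). A further such gene, Glyma.20G019400, averaged 5.19 CPM at 14:00 and 2.42 CPM at 8:00, with a log2 fold change of 1.12 that was 0.97 without plot 2.

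**Figure D2:**
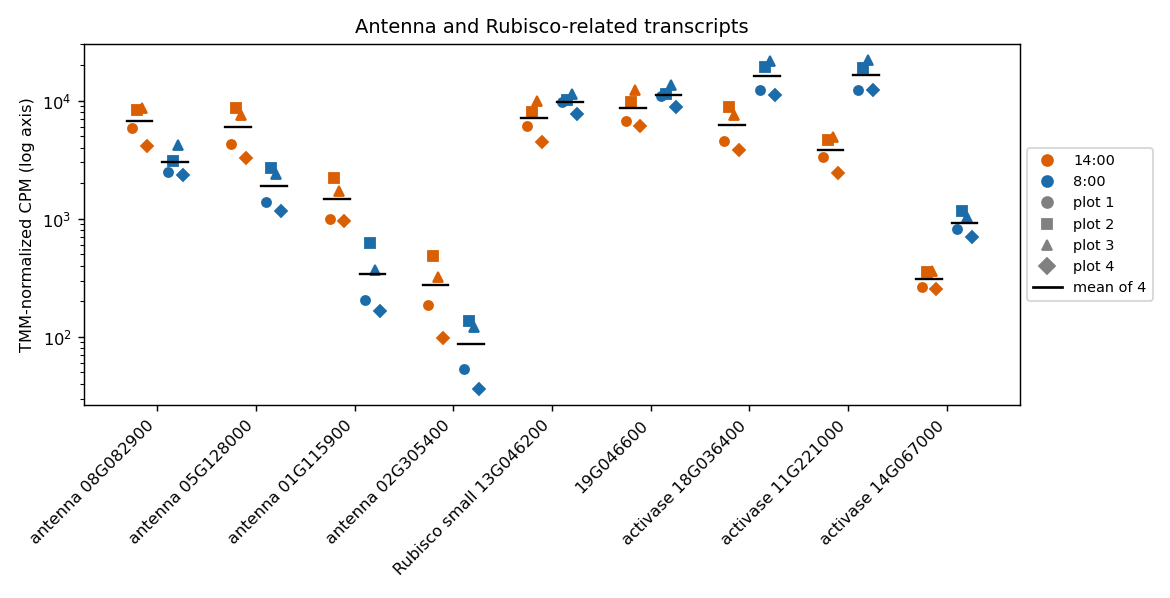
TMM-normalized CPM (log axis) at 14:00 (orange, left of each pair) and 8:00 (blue, right) for antenna genes, the Rubisco small chain, Glyma.19G046600 (a transcript with many counts and no name in the sources used here) and Rubisco activase genes, with 1 symbol per plot and a bar at the mean of 4 plots. Antenna genes lie higher at 14:00 and the 3 activase genes shown lie lower, with log2 fold changes of 1.11 to 2.18 and of -2.09 to -1.40.

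Enzymes of chlorophyll synthesis and breakdown moved in both directions. Some early steps of the tetrapyrrole pathway were higher at 14:00. Coproporphyrinogen III oxidase (Glyma.04G192800) had 15.7, 15.8, 16.8 and 17.3 CPM at 14:00 and 6.97, 2.86, 2.66 and 6.96 CPM at 8:00 (log2 fold change 1.83, SE 0.23, edgeR adjusted p = 2.5e-05). Uroporphyrinogen III synthase (Glyma.06G037300) had 6.12, 8.10, 5.17 and 6.79 CPM at 14:00 and 2.68, 2.86, 1.36 and 2.49 CPM at 8:00 (log2 fold change 1.48, SE 0.23, edgeR adjusted p = 0.00016). The hours were apart for both, and the afternoon values of the oxidase were even across plots. Porphobilinogen deaminase (Glyma.11G094700) had a log2 fold change of 0.58, under the threshold.

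Divinyl chlorophyllide reductase (Glyma.13G215400), a late step towards chlorophyll, had 10.3, 23.2, 16.8 and 8.57 CPM at 14:00 and 81.2, 65.7, 88.5 and 66.7 CPM at 8:00. It was lower in all plots without overlap (log2 fold change -2.47, SE 0.22, edgeR adjusted p = 1.2e-06). Chlorophyllase (Glyma.10G003200), which removes the phytol tail of chlorophyll, had 120.4, 83.3, 123 and 109 CPM at 14:00 and 41.8, 17.0, 33.8 and 41.6 CPM at 8:00 (log2 fold change 1.74, SE 0.19, edgeR adjusted p = 6.8e-06).

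The 10 largest rises, taken among called genes of at least 10 CPM at 14:00 that rose in all plots, ran over log2 fold changes of 5.21 to 6.997. Only 2 of these loci have a name in the sources used here. Thiamine thiazole synthase (Glyma.10G251500), which makes the thiazole part of vitamin B1 and is used up in each reaction it performs, had 930.4, 606, 1256 and 931 CPM at 14:00 and 28.8, 4.22, 12.5 and 30.6 CPM at 8:00. It rose by 5.76 on the log2 scale (SE 0.60, edgeR adjusted p = 3.9e-06), with the lowest morning value again in plot 2, and averaged 3072 CPM at 17:00. A cytochrome P450 (Glyma.11G093100) had 86.3, 98.5, 143 and 279 CPM at 14:00 and 2.68, 0.520, 5.79 and 12.6 CPM at 8:00, and plot 4 was highest at both hours.

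The largest rise of all in this set was Glyma.16G177800, with 124, 133, 215 and 141 CPM at 14:00 and 1.34, 0.781, 1.04 and 1.56 CPM at 8:00 (log2 fold change 6.997, SE 0.44, edgeR adjusted p = 8.5e-08). The other 7, in order of size, were Glyma.12G118600, Glyma.20G031200, Glyma.01G184600, Glyma.04G196400, Glyma.08G248000, Glyma.13G278600 and Glyma.05G239400. Of the 10, 9 were also higher at 14:00 than at 11:00, against 3.31% of all genes. At 17:00, 5 were higher still, against 3.08% of all genes. The 14:00 libraries that picked these genes enter both comparisons, which favours the first count. The exception to the first count, Glyma.01G184600, had already reached 21.9 ± 7.55 CPM at 11:00, near its 28.3 ± 7.80 CPM at 14:00 and far above its 0.310 ± 0.197 CPM at 8:00 (SD, n = 4 plots each).

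The 10 largest falls ran over log2 fold changes of -6.67 to -5.12 and included LCL2. Glyma.20G232700 fell most, with 0.287, 0.429, 0.251 and 0.193 CPM at 14:00 and 31.6, 39.8, 17.6 and 30.4 CPM at 8:00 (log2 fold change -6.67, SE 0.30, edgeR adjusted p = 6.3e-09). A haloacid dehalogenase gene (Glyma.08G195100) had 50.8, 5.90, 6.33 and 7.72 CPM at 14:00 and 699, 191, 282 and 518 CPM at 8:00 (log2 fold change -5.20, SE 0.55, edgeR adjusted p = 4.8e-06). Plot 1 was highest at both hours, and the hours did not overlap for either gene.

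A xyloglucan endotransglycosylase/hydrolase (Glyma.05G109600), an enzyme that cuts and rejoins wall xyloglucan, had 0.0411, 0.483, 0.0502 and 0 CPM at 14:00 and 3.77, 33.1, 0.470 and 9.19 CPM at 8:00 (log2 fold change -6.16, SE 0.88, edgeR adjusted p = 6.8e-05). Plot 3 at 8:00 was within the afternoon range. The remaining 6, in order of size, were Glyma.12G196200, Glyma.03G216900, Glyma.05G142400, Glyma.01G036900, Glyma.12G234500 and Glyma.04G133400. Of the 10 falls, 9 were lower at 14:00 than at 11:00, all but the xyloglucan enzyme, against 2.54% of all genes. At 17:00, 6 were lower again, against 4.04% of all genes. Here too the 14:00 libraries picked the genes and enter both comparisons, which favours the first count.

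Among regulators and membrane proteins named by the study as hubs of its network, YABBY (Glyma.17G138200), of a family of leaf polarity factors, had 0.698, 0.322, 1.06 and 0.116 CPM at 14:00 and 6.55, 7.55, 4.64 and 1.14 CPM at 8:00. It fell by 3.23 on the log2 scale (SE 0.32, edgeR adjusted p = 2.7e-06). SHN2 (Glyma.17G210500), of the SHINE cuticle regulators, had 0.116 to 0.268 CPM at 14:00 and 1.18 to 3.20 CPM at 8:00 (log2 fold change -3.02, SE 0.42). The kinase PIP5K (Glyma.03G186300) and the leucine-rich repeat gene LRRNT_2 (Glyma.20G143600) were lower too, by log2 fold changes of -1.16 and -1.82, while the aquaporin PIP2;4 (Glyma.11G146500) was higher, with 21.6, 13.8, 16.6 and 12.2 CPM at 14:00 and 6.97, 6.35, 4.38 and 2.40 CPM at 8:00 (log2 fold change 1.74, SE 0.21, edgeR adjusted p = 1.3e-05). With libraries scaled by totals, PIP5K was at -0.97 and under the fold threshold. PHNP (Glyma.02G176100) stayed under 1 CPM in all 8 libraries and was not called (log2 fold change -0.29, SE 0.54, edgeR adjusted p = 0.70).

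The 14:00 libraries were then set against 11:00 and 17:00 to place the changes within the day. Among the 4387 genes higher at 14:00 than at 8:00, 1036 were also higher at 14:00 than at 11:00, a comparison in which 3.31% of all genes were higher, and 0 were lower. Among the 3753 lower genes, 810 were also lower than at 11:00, against 2.54% of all genes, and 0 were higher, where 5.85% of all genes differed in either direction. These comparisons share the 14:00 libraries, so the counts are given without a test. With libraries scaled by totals alone, the 1036 became 1627 and the 810 became 485. At 17:00, 108 of the higher genes were lower than at 14:00 and 205 were higher still, while 249 of the lower genes were higher than at 14:00 and 704 were lower still. Among all genes, 4.04% were lower and 3.08% higher at 17:00 than at 14:00, or 7.12% in either direction. The 108 became 60, 66 and 46 without plots 1, 2 and 4, and the 249 became 130, 126 and 139. Without the plot term they became 60 and 154.

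HSFA2 (Glyma.04G052000), a heat stress transcription factor, was one of the 5 risers with the largest decline by 17:00 among called genes of at least 10 CPM at 14:00 that moved alike in all plots. It had 11.9, 12.7, 14.4 and 40.0 CPM at 14:00 and 1.75, 0, 3.08 and 2.95 CPM at 8:00 (log2 fold change 3.47, SE 0.55, edgeR adjusted p = 0.00016), and 4.76 ± 2.21 CPM at 17:00 (SD, n = 4 plots). Glyma.13G321100 averaged 17.8, 75.7, 115 and 16.1 CPM over the hours 8:00, 11:00, 14:00 and 17:00. Glyma.06G158400 took the same shape, with 71.1, 131, 191 and 44.3 CPM. The highest mean of Glyma.01G097900 (88.5 CPM) and of Glyma.07G200200 (38.6 CPM) was at 11:00, although neither differed from 14:00 by the test (edgeR adjusted p = 0.10 and 0.21).

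Within the same limits, set on the 8:00 level, the reverse shape, low at 14:00 and high again at 17:00, was largest in Glyma.07G032900, which averaged 14.3, 3.28, 1.19 and 30.97 CPM over 8:00, 11:00, 14:00 and 17:00. Glyma.02G283500 averaged 24.1, 15.3, 3.01 and 37.3 CPM. Protein P21 (Glyma.05G204800), a thaumatin-like protein, had 0.945, 0.268, 0.804 and 0.734 CPM at 14:00 and 57.8, 0.625, 6.84 and 3.29 CPM at 8:00, so plot 1 set its morning mean, and its log2 fold change of -3.71 was -2.39 without plot 1. Glyma.10G202400 and Glyma.20G130000 completed the set, with log2 fold changes of -4.30 and -2.74 for 14:00 over 8:00.

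**Figure D3:**
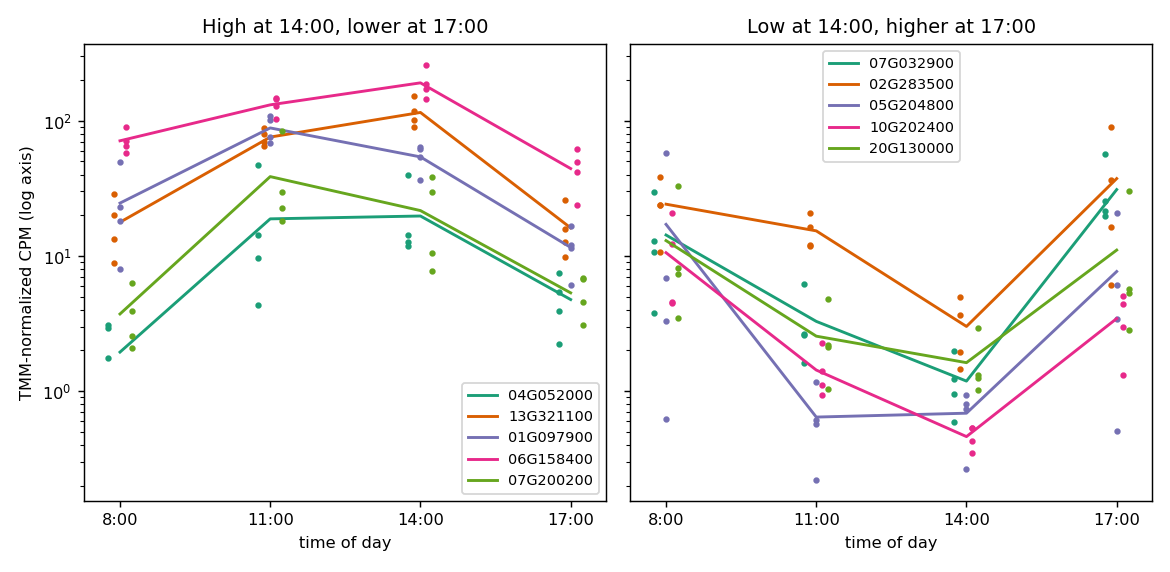
Mean TMM-normalized CPM (lines, log axis) and the 4 plots (dots, values of 0 not drawn) at 8:00, 11:00, 14:00 and 17:00, for the 5 genes that rose by 14:00 and fell most by 17:00 (left) and the 5 that fell by 14:00 and rose most by 17:00 (right), each of at least 10 CPM at the higher of 14:00 and 8:00. The means of Glyma.06G158400 run 71.1, 131, 191 and 44.3 CPM, and those of Glyma.07G032900 run 14.3, 3.28, 1.19 and 30.97 CPM.

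Gene lists could be drawn only from 931 genes with a database description held here, which are those that varied most between plots in the study. Of these, 93 were higher (9.99%) and 130 were lower (14.0%), with a median log2 fold change of -0.07. Counts of list members are read beside both these shares and the shares over all genes, 12.2% and 10.4%.

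Phosphate starvation response transcripts were mostly lower at 14:00. Of 16 listed genes, 9 were lower, 1 was higher and 6 were not called, with a median log2 fold change of -1.88. The count lower stayed at 7 to 9 when any plot was left out, and the count higher was 3 without plot 4. Without the plot term 5 were lower and 0 higher. The lower members held SPX domain proteins, which sense cell phosphate, secreted purple acid phosphatases, and enzymes that replace membrane phospholipids by sulfolipids and galactolipids.

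An SPX domain gene (Glyma.09G263400) had 3.94, 20.5, 8.54 and 2.82 CPM at 14:00 and 52.2, 54.9, 83.2 and 13.7 CPM at 8:00 (log2 fold change -2.65, SE 0.35, edgeR adjusted p = 3.0e-05). An IDS4-like gene (Glyma.04G147600), of the same SPX family, had 12.9, 1.501, 3.47 and 1.00 CPM at 14:00 and 45.7, 12.6, 17.6 and 31.3 CPM at 8:00 (log2 fold change -2.9996, SE 0.59, edgeR adjusted p = 0.00098). Each fell in every plot, while plots of different hours overlapped. Purple acid phosphatase Glyma.08G056400 had 39.7, 6.06, 13.2 and 8.995 CPM at 14:00 and 96.3, 35.3, 46.2 and 144 CPM at 8:00 (log2 fold change -2.45, SE 0.57, edgeR adjusted p = 0.0032).

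The glycerophosphodiester phosphodiesterase Glyma.16G052000, which frees phosphate from lipid head groups, averaged 12.6 CPM at 14:00 and 59.5 CPM at 8:00 (log2 fold change -2.93, SE 0.63, edgeR adjusted p = 0.0018). The opposite direction was taken by the acid phosphatase Glyma.08G194900, with 3.04, 3.81, 7.49 and 58.8 CPM at 14:00 and 0.465, 0.104, 0.418 and 7.80 CPM at 8:00 (log2 fold change 3.31, SE 0.33, edgeR adjusted p = 2.9e-06). Plot 4 was far above the others at both hours, and the rise was seen in each plot. Without the plot term, the calls of Glyma.04G147600, Glyma.16G052000 and Glyma.08G194900 were lost, with edgeR adjusted p-values of 0.052, 0.076 and 0.10.

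Nitrogen assimilation genes split, with 5 of 11 higher, 2 lower and a median log2 fold change of 0.24. The count higher was 3 without plot 1, 3 or 4. Nitrate reductase Glyma.13G084000, which makes nitrite from nitrate, had 16.4, 1.02, 1.21 and 1.74 CPM at 14:00 and 66.3, 8.95, 86.2 and 12.1 CPM at 8:00 (log2 fold change -3.26, SE 0.70, edgeR adjusted p = 0.0017). L-asparaginase Glyma.14G086300, which releases ammonium from asparagine, had 54.3, 358, 117 and 39.5 CPM at 14:00 and 186, 631, 513 and 141 CPM at 8:00, lower in every plot (log2 fold change -1.62, SE 0.24, edgeR adjusted p = 0.00010). Plot differences were as wide as those between hours for the asparaginase, and without the plot term its edgeR adjusted p was 0.14.

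Higher at 14:00 was an NADH glutamate synthase (Glyma.04G236900), which combines glutamine and oxoglutarate, at 137, 75.1, 189.5 and 197 CPM at 14:00 and 41.7, 16.0, 10.8 and 45.5 CPM at 8:00 (log2 fold change 2.32, SE 0.46, edgeR adjusted p = 0.00095). A nitrate and chloride transporter (Glyma.10G276700) averaged 53.6 CPM at 14:00 and 15.3 CPM at 8:00 (log2 fold change 1.93), and a nitrate transporter (Glyma.13G167700) averaged 3.27 and 0.414 CPM at these hours (log2 fold change 3.09). Asparagine synthetase Glyma.02G228100 had 71.0, 6.22, 69.8 and 68.5 CPM at 14:00 and 10.1, 10.5, 14.9 and 6.91 CPM at 8:00. It fell in plot 2 while the others rose, and the call (log2 fold change 1.95, edgeR adjusted p = 0.021) was lost without plot 1, 3 or 4, with log2 fold changes of 1.59, 1.81 and 1.38.

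**Figure D4:**
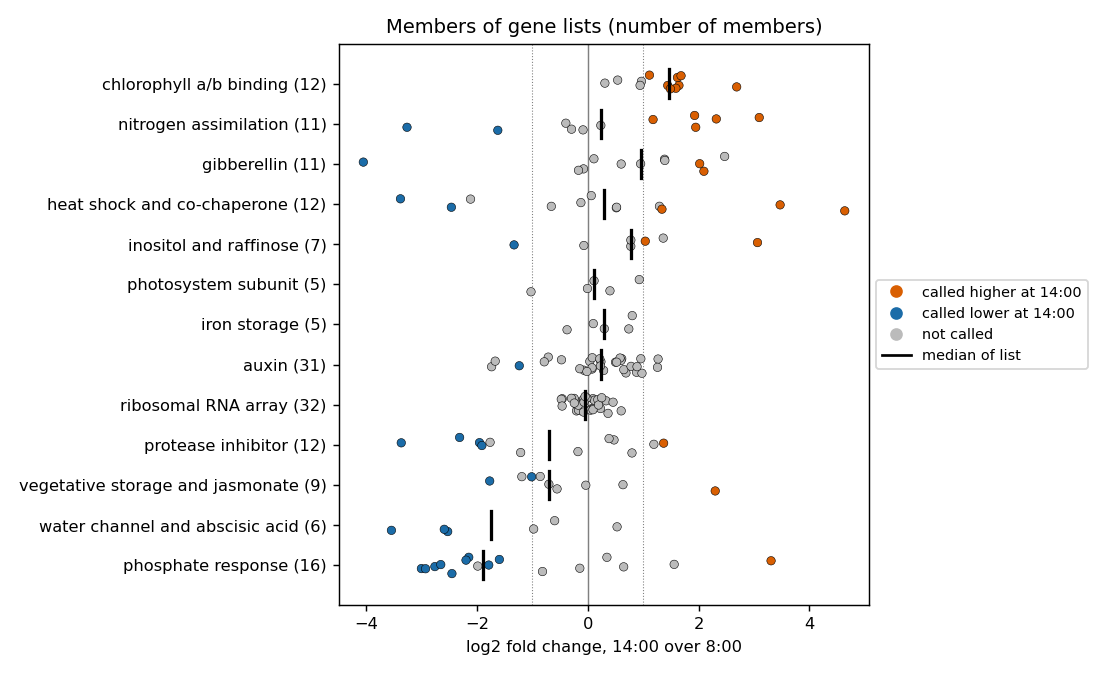
Log2 fold change of 14:00 over 8:00 for each member of 13 gene lists (number of members in parentheses), orange where called higher, blue where called lower and grey where not called, with a black bar at the list's median, a grey line at the median of all genes and dotted lines at 1 and -1. Chlorophyll a/b binding genes lie at positive values (median 1.47), phosphate response genes mostly at negative values (median -1.88), and the ribosomal RNA array, iron storage and photosystem subunit lists have 0 called members.

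Hormone lists differed in how many members were called. Of 6 water channel and abscisic acid genes, 3 were lower and 0 higher by edgeR, DESeq2 and limma (0 higher at an unadjusted p under 0.05). Their median log2 fold change was -1.75. The aquaporin PIP2;4, called higher above, is not on this list. The abscisic acid receptors of the PYL4 type, Glyma.01G124700 and Glyma.07G155500, were among them. Glyma.01G124700 had 10.5, 10.8, 4.22 and 2.43 CPM at 14:00 and 21.99, 63.2, 22.2 and 54.7 CPM at 8:00 (log2 fold change -2.53, SE 0.50, edgeR adjusted p = 0.00090). The abscisate glucosyltransferase Glyma.07G215500, which stores the hormone as a conjugate, had 2.09, 0.322, 1.11 and 2.43 CPM at 14:00 and 17.0, 2.34, 6.26 and 11.7 CPM at 8:00 (log2 fold change -2.59, SE 0.37, edgeR adjusted p = 6.2e-05). The count lower stayed at 3 when any plot was left out or the plot term was dropped.

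Of 11 gibberellin genes 2 were higher and 1 lower, and of 31 auxin genes 0 were higher and 1 lower by edgeR, with 0 higher and 2 lower at an unadjusted p under 0.05 (DESeq2 called 0 higher and 1 lower, limma 2 and 1). Without plot 1 the auxin list had 1 higher and 0 lower. The gibberellin count higher was 1 without plot 1, 2 or 3, 3 by DESeq2, 1 by limma and 4 when only the 8 libraries of these hours were fitted. A GA-stimulated transcript (Glyma.04G169600) had 0 to 0.862 CPM at 14:00 and 3.29 to 16.1 CPM at 8:00 (log2 fold change -4.05, SE 0.58, edgeR adjusted p = 6.7e-05). Gibberellin 2-oxidase Glyma.13G259400, which inactivates gibberellins, had 5.05, 3.27, 2.06 and 15.1 CPM at 14:00 and 1.65, 0.364, 1.20 and 2.91 CPM at 8:00 (log2 fold change 2.02, SE 0.42, edgeR adjusted p = 0.0013). Gibberellin 20 oxidase Glyma.06G155000, also called higher, averaged 2.874 CPM at 14:00 and 0.573 CPM at 8:00 (edgeR adjusted p = 0.0422). It rose in every plot, but its call was lost without plot 1, 2 or 3, by limma and without the plot term.

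Inositol metabolism had 2 of 7 genes higher and 1 lower. The count higher was 1 without plot 1 or plot 3 and without the plot term, and the count lower was 0 without plot 2, 3 or 4. Myo-inositol-1-phosphate synthase Glyma.08G138200, the first step of inositol synthesis, had 362, 299.5, 298 and 169.6 CPM at 14:00 and 33.8, 37.5, 35.4 and 22.7 CPM at 8:00 (log2 fold change 3.06, SE 0.55, edgeR adjusted p = 0.00045). Another gene with that description, Glyma.05G180600, had a log2 fold change of -0.07, and was looked up after its values were seen. All 4 plots rose for Glyma.08G138200 without overlap of the hours.

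Heat shock and co-chaperone genes included 3 higher and 2 lower members of 12. Besides HSFA2 and a dnaJ chaperone (Glyma.07G197600, log2 fold change 1.34, lost without plot 3 at 1.11), the co-chaperone BAG 6A (Glyma.07G061500) had 0.287, 10.2, 1.36 and 5.95 CPM at 14:00 and 0, 0.364, 0 and 0.253 CPM at 8:00 (log2 fold change 4.64, SE 0.55, edgeR adjusted p = 1.3e-05), uneven between plots at 14:00. The lower members, Glyma.11G105800 and Glyma.08G337100, each rested on 1 morning library, with 2.91 CPM in plot 2 and 2.79 CPM in plot 1, and their calls were lost without that plot (log2 fold changes of -2.04 and -1.44). Transcription factors included 8 higher and 2 lower of 52, and the count higher was 3, 6, 4 and 5 without plots 1 to 4 in turn, 5 by limma and 1 without the plot term. One of the lower genes was bZIP105 (Glyma.03G247100), with 0.698, 3.81, 2.01 and 0.734 CPM at 14:00 and 6.04, 54.4, 10.5 and 7.97 CPM at 8:00 (log2 fold change -3.25, SE 0.69, edgeR adjusted p = 0.0016).

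Defence-related lists held calls in both directions. Protease inhibitors, which block insect digestive enzymes, had 4 lower and 1 higher of 12, and Kunitz inhibitor KTI1 (Glyma.08G341700) had 1.07, 2.20, 0.402 and 0.309 CPM at 14:00 and 9.29, 22.6, 3.18 and 5.18 CPM at 8:00 (log2 fold change -3.36, SE 0.47, edgeR adjusted p = 5.5e-05). The count lower was 2 without plot 3 and 3 without any other plot, and the count higher was 0 without plot 1, 2 or 3 and 2 without plot 4. In the list of vegetative storage proteins and jasmonate synthesis, 2 of 9 were lower and 1 higher. Without plots 1 and 2 in turn 1 was lower and 0 higher, without plot 3 these were 2 and 0, without plot 4 they were 1 and 2, and without the plot term 0 passed. Lipoxygenase Glyma.07G034900 had 176, 615, 61.6 and 149 CPM at 14:00 and 370.4, 1868, 309.7 and 753 CPM at 8:00 (log2 fold change -1.77, SE 0.29, edgeR adjusted p = 0.00023). Plots 2 and 4 led at 8:00, each plot fell, and the edgeR adjusted p was 0.10 without the plot term.

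Cell wall genes gave 3 higher and 5 lower members of 75, and 30 xylem and secondary wall genes, 29 of them on the same list, gave 1 higher and 1 lower. These counts rest on plot 2, since without it the cell wall list had 12 higher and 3 lower members and the xylem list 8 higher and 0 lower. The trichome birefringence-like gene Glyma.12G233400, of a family that acetylates wall polysaccharides, had 0.493, 0.429, 0.653 and 0.0772 CPM at 14:00 and 2.84, 41.5, 2.71 and 1.94 CPM at 8:00 (log2 fold change -3.97, SE 0.69, edgeR adjusted p = 0.00036). The summed xylem and secondary wall list was highest in the same 8:00 library of plot 2, at 147 CPM against 14.5 to 78.6 CPM in the other morning plots, and had 15.8 to 116 CPM at 14:00. The part of wall-rich tissue in this fall was not tested, and the log2 fold change was -2.69 without plot 2.

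Among the remaining lists, the phloem list had 0 higher and 1 lower of 4 by edgeR (DESeq2 and limma called 0), the thiamine list had 1 higher and 0 lower of 2, and the Rubisco small chain had 0 calls of 1. Ferritins (5 genes), starch and sucrose genes (4) and the ribosomal RNA array list (32) had 0 called members by edgeR, DESeq2 and limma, and 0 with an unadjusted p under 0.05. The ribosomal RNA array summed to 1845 to 25471 CPM at 14:00 and to 2061 to 9999 CPM at 8:00, a wide spread between plots within each hour. Flavonoid genes had 1 higher and 0 lower of 7, with 2 higher and 1 lower at an unadjusted p under 0.05 (DESeq2 called 0 and limma 2 higher), and 0 were higher without plot 2. The clock and photoperiod list, 4 genes by description, had PRR73 higher and the CONSTANS-like gene Glyma.13G050300, a photoperiod factor, lower, with 0.0536 to 0.205 CPM at 14:00 and 5.37, 0.312, 0.104 and 2.82 CPM at 8:00 (log2 fold change -3.97, SE 0.76, edgeR adjusted p = 0.0014).

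Some calls rested on a single library. Among the 3753 lower genes, 16 had over 90% of their summed 8:00 CPM in 1 library, and for 15 of these it was plot 1, whereas the 4387 higher genes held 2 such cases at 14:00. Sieve element occlusion s (Glyma.20G204500), a protein that plugs phloem sieve tubes in legumes, had 0.0411, 0.107, 0.100 and 0.0772 CPM at 14:00 and 407, 0, 0 and 0.0422 CPM at 8:00. Its fitted log2 fold change of -9.41 (SE 2.28, edgeR adjusted p = 0.0040) comes from plot 1 alone, since 3 plots were at or near 0 at both hours. Glyma.18G103500, chosen after its values were seen, had 0 CPM in all 14:00 libraries. Its 8:00 level was 56.1 CPM in plot 1, while the remaining plots had 0.0422 CPM or less. Without plot 1, 0 of the 15 genes passed the count minimum, so none could be tested.

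No counts in any 8:00 library were found for 25 higher genes, and none in any 14:00 library for 26 lower genes, some of which are among the single-library genes above. The most abundant of the higher ones, Glyma.19G156800 (picked for that level), had 0.904, 1.45, 0.854 and 0.849 CPM at 14:00. It was at least 27.5-fold higher at 14:00 than the floor of 3 counts over the 4 morning libraries, 0.0368 CPM.

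The direction of change differed with transcript level. Of 8476 genes with a mean of 1 to 5 CPM over the 8 libraries, 18.2% were higher at 14:00 and 10.5% were lower, whereas of 1493 genes at 100 CPM or more, 7.97% were higher and 19.2% were lower. In the bin of 20 to 100 CPM the shares were 7.42% higher and 12.7% lower. Scaled by library totals alone, the shares at 100 CPM or more were 10.5% higher and 15.1% lower, and at 1 to 5 CPM 23.1% higher and 7.77% lower, so the contrast between the bins kept its direction under both scalings, while at 20 to 100 CPM the shares became nearly equal, at 9.39% higher and 9.38% lower.

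**Figure D5:**
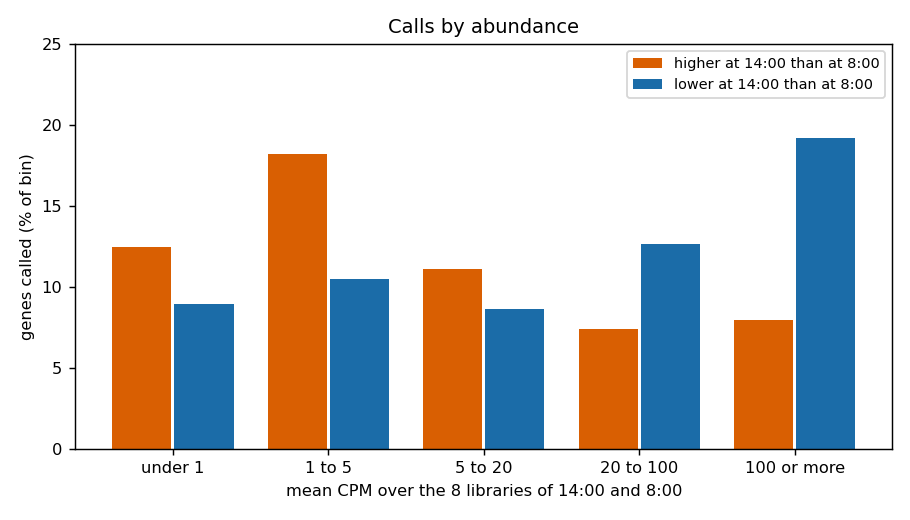
Share of genes called higher (orange) and lower (blue) at 14:00 than at 8:00, in percent of each bin (bars from 0), by mean CPM over the 8 libraries. Genes of 1 to 5 CPM were more often higher (18.2% against 10.5% lower), and genes of 100 CPM or more were more often lower (19.2% against 7.97% higher).

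Calls also lay near each other along the chromosomes. The next tested locus on the same chromosome was higher for 16.7% of higher genes, against 12.2% of all next loci, and lower for 16.5% of lower genes, against 10.4% of all next loci. Neighbouring loci can be tandem copies that share reads, so these shares are descriptions. The longest run, looked up after the values were seen, was 9 consecutive tested loci on chromosome 16, Glyma.16G174400 to Glyma.16G175300, all lower at 14:00 in all 4 plots with log2 fold changes of -2.39 to -1.07, and a further run of 6 loci, Glyma.16G187400 to Glyma.16G188300, lay on the same chromosome. No locus of these runs has a name in the sources used here. Over the numbered chromosomes, 10.7% to 14.4% of genes were higher and 8.96% to 12.99% were lower.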

How the data were processed

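Poly-A RNA of soybean leaflets was sequenced in 16 libraries, 4 plots at each of 4 hours, and the 8 libraries of 14:00 and 8:00 were compared. The authors trimmed reads with Trimmomatic, aligned them by TopHat to a Williams 82 reference (version 2 of the assembly with version 1 of its annotation) and deposited raw read counts per gene from HTSeq-count, whole numbers with no normalization. The submitters' processing notes name CASAVA 1.8.2. The paper states that the libraries were run on randomly assigned lanes. Which library was on which lane, and how strand and overlapping genes were handled in counting, was not found in the paper or labels. All 16 columns were matched by name, with 0 left over. Genes with under 8 counts in every library were dropped, which kept 36059 of 56044.

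Counts were fitted in R 4.3.3 with edgeR 4.0.16 (trimmed mean of M-values scaling, quasi-likelihood test, Benjamini-Hochberg adjustment over all genes) on all 16 libraries with hour and plot as terms. The standard errors are approximate, taken as the log2 fold change over the square root of F. The labels give a replicate number but no plot or day. In the paper each replicate was 1 plot sampled at all hours of 1 day, so the number was taken to pair the libraries. Deviations from the hour means correlated with a median r of 0.242 over 24 pairs of the same plot and of -0.0703 over 72 pairs differing in plot and hour. The 14:00 and 8:00 libraries of a plot gave -0.0179 to 0.327. Libraries of the same hour differed well beyond sampling noise, so none was counted as a copy.

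Named genes were the loci named in the study's text and hub table, 18 further loci from an earlier description of these data, the 10 largest rises and falls (at least 10 CPM, same direction in all plots), up to 6 called members per list, the 5 genes of highest mean CPM at each hour, and, in each direction, the 5 largest reversals by 17:00 (called at both steps, in the same direction in each plot, with a mean of 10 CPM or more at 14:00 or 8:00). The members, the 22 lists and these rules were chosen with earlier results of these data known. Names come from the study and from its table of database matches, of which 931 genes are held. The reference table matched 0 locus identifiers. Alternatives were DESeq2 1.42.0 size factors and its Wald test, limma 3.58.1, library totals alone, no plot term, other count filters, the 8 libraries alone, no fold threshold, and each plot left out. CPM well under 1 rests on few reads, and floors cover counting error only.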

Additional observations from a re-analysis of the deposited data

Results flagged for a closer look

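Among 248 groups of 4 plots, one for each named gene and hour, 33 had a single plot standing far from the other 3, 18 of them at 8:00 and 15 at 14:00. For normally distributed values about 1 group in 20 would be marked. That distribution was not checked for these values, so the 33 are not compared with chance. The values are scaled counts (CPM).

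In plot 2 at 8:00, single high values were seen for the cell wall genes TBL41 (Glyma.12G233400, 41.5 CPM, others up to 2.84) and a laccase (Glyma.11G233400, 5.15 CPM, others up to 0.774). The same library was high for bZIP105 (Glyma.03G247100, 54.4 CPM, others up to 10.5) and a GA-stimulated transcript (Glyma.04G169600, 16.1 CPM, others up to 4.65). It was also high for the antenna gene Glyma.16G165800 (43.0 CPM, others up to 10.6) and a heat shock protein fragment (Glyma.11G105800, 2.91 CPM, others up to 0.365), and low for Glyma.13G278600 (0.156 CPM, others from 0.337). At 14:00, plot 2 was low for PRR73 (Glyma.04G228300, 45.4 CPM, others from 83.5) and for asparagine synthetase (Glyma.02G228100, 6.22 CPM, others from 68.5). It was high for the xyloglucan enzyme Glyma.05G109600 (0.483 CPM, others up to 0.0502) and allene oxide cyclase 5 (Glyma.08G256600, 1.34 CPM, others up to 0.402), a jasmonate synthesis gene.

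Plot 1 was high at 8:00 for sieve element occlusion s (Glyma.20G204500, 407 CPM, others up to 0.0422), protein P21 (Glyma.05G204800, 57.8 CPM, others up to 6.84), a dnaJ chaperone (Glyma.08G337100, 2.79 CPM, others up to 0.337) and a GATA factor (Glyma.08G202100, 0.103 CPM, others at 0). Glyma.20G130000 was high in plot 1 at both hours, with 2.92 CPM at 14:00 and 33.0 CPM at 8:00. At 14:00, plot 1 was also high for the haloacid dehalogenase gene Glyma.08G195100 (50.8 CPM, others up to 7.72), nitrate reductase (Glyma.13G084000, 16.4 CPM, others up to 1.74) and PRR5 (Glyma.03G261300, 42.5 CPM, others up to 34.7).

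Plot 4 stood high at both hours for an acid phosphatase (Glyma.08G194900, 58.8 CPM at 14:00 and 7.80 CPM at 8:00) and an AP2/ERF factor (Glyma.07G078600, 0.540 CPM at 14:00 and 2.78 CPM at 8:00). At 14:00 it was high for HSFA2 (Glyma.04G052000, 40.0 CPM, others up to 14.4), cellulose synthase-like H1 (Glyma.06G307900, 154 CPM, others up to 37.3) and 5NG4 (Glyma.13G189700, 24.4 CPM, others up to 5.48). It was low at 14:00 for LCL1 (Glyma.07G048500, 81.3 CPM, others from 106) and SHN2 (Glyma.17G210500, 0.116 CPM, others from 0.246). At 8:00 it was high for a nitrate and chloride transporter (Glyma.10G276700, 33.0 CPM, others up to 10.9) and a purple acid phosphatase (Glyma.05G138400, 1.90 CPM, others up to 0.258), and low for LRRNT_2 (Glyma.20G143600, 10.4 CPM, others from 11.5). In plot 3, only PsbD (Glyma.01G153500) at 8:00 was marked, at 2.40 CPM with the others up to 1.73.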

How the results depend on the processing

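All alternatives kept the counts higher and lower at 14:00 than at 8:00 within 1.5 times of 4387 and 3753, except dropping the fold threshold, which gave 8073 and 7603. That setting also gave 2378 genes also higher than at 11:00, 2143 also lower, 393 higher genes that were lower at 17:00 and 624 lower genes that were higher at 17:00. Library totals alone gave 1627 genes also higher than at 11:00 and 485 also lower. Without the replicate block, the genes higher at 14:00 and lower at 17:00 numbered 60, and those lower at 14:00 and higher at 17:00 numbered 154. Leaving out each plot in turn gave 3916 to 4150 higher and 3330 to 3644 lower genes, 696 to 925 and 642 to 673 also differing from 11:00, and 46 to 116 and 126 to 276 that reversed by 17:00. Each of these fits shared 82.3% to 87.1% of the higher and 82.5% to 86.1% of the lower calls. The counts of calls with and without the block were 4387 and 4117 higher, of which 4075 genes were shared. For named genes, 75 of 111 calls held under every alternative with a value, and 25 were lost without the block. Log2 fold changes turned for PRR5 (Glyma.03G261300, -0.018 without the block, -0.42 to 0.57 with a plot left out), Glyma.17G205000 (-0.0051 to 0.076 with a plot left out) and Glyma.02G176100 (-0.79 to 0.073 with a plot left out), none of them called. The causes of these differences were not tested. Glyma.20G204500 and Glyma.08G202100 had no value without plot 1.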
